A study of Homo sapiens with 12 samples.

Results

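The comparison described here is that of messenger RNA in exosomes from AC16 cells of the group labelled Ang with exosomes of the group labelled Con. Its members are the 6 exosome libraries (3 Con, 3 Ang) of the 12 libraries in the series, chosen by their titles, and all 11973 genes listed in their gene count files. AC16 is an established human line, obtained by fusing ventricular cardiomyocytes with a fibroblast line, and it keeps dividing in culture. All 6 libraries share this line. The labels give no dose, time or full name for Con or Ang, and the series' text speaks of hypertrophic cardiomyocytes as the source of the exosomes and of a search for RNA and RNA-binding proteins in them. Exosome RNA was isolated with an exoRNeasy Maxi kit and sequenced as total RNA with a SMARTer Stranded kit, per the labels' protocols. Whether the 3 libraries of a group stem from different cultures is not in the labels, so every p-value measures the spread among these libraries, which may be technical.

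Exosomes are small vesicles that form inside endosomes and leave the cell when the endosome fuses with the plasma membrane. They carry proteins, lipids and RNA of the cell that made them, and messenger RNA reaches them as whole molecules and as fragments. In the heart they are studied as carriers between cardiomyocytes, fibroblasts and vessel cells. Angiotensin II is a peptide hormone widely used to induce hypertrophy of cultured cardiomyocytes, with immediate-early and fetal genes among its known responses, but the labels do not say whether Ang stands for it. In pooled vesicles, fewer vesicles with a transcript and fewer copies per vesicle cannot be told apart.

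The Con libraries held 717263 to 745311 gene reads and the Ang libraries 535442 to 587783, so the group totals did not overlap. Of 16 cardiomyocyte markers 3 were listed: TTN had 4 to 8 reads per library, GATA4 6 to 31 and the calcium pump gene ATP2A2 60 to 191, while the troponins, MYH6, NKX2-5 and the other defining markers were not listed. Of 10 fibroblast markers 9 were listed, of which 5 had enough reads to test. The summed level of the 9 was 2940 to 3140 CPM (read counts scaled to the library's total in tested genes) in Con and 3180 to 3250 in Ang. Most of it was the collagen gene COL1A1. DCN, LUM, POSTN and PDGFRA had 0 to 18 reads per library, and COL3A1 had 1 to 68. None of 9 immune markers was listed. Endothelial markers (2 of 8 listed) summed to 0 to 11.1 CPM in Con and 0 to 1.92 in Ang, and globin genes were the 3 listed of 10 blood and serum markers, with 0 to 39.9 CPM in Con and 0 in every Ang library. The part of these markers in the results below was not tested.

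Few genes separated the groups. Of 8327 genes with enough reads to test, edgeR's quasi-likelihood test called 1 (0.012%) at a Benjamini-Hochberg adjusted p of 0.05, and that gene was TXNIP. An unadjusted p under 0.05 was found for 316 (3.79%), of which 152 were higher (1.83%) and 164 lower (1.97%) in Ang. The 3 Ang libraries lay wholly above or below the 3 Con libraries for 897 genes (10.8%), 431 higher and 466 lower. With 3 against 3, full separation has an exact two-sided permutation p of 0.1, so a share near that needs no group difference. The fitted change was over 2-fold for 587 genes, 286 higher and 301 lower, and positive for 4147 (49.8%). DESeq2 called 16 genes (0.192%), 5 higher and 11 lower, TXNIP among them. The edgeR count was 2 without the Con library of replicate 2 (TIMP3 added), 4 without the Ang library of replicate 1 (MYO18A, HNRNPA3 and KRI1 added) and 3 without the Ang library of replicate 3 (SSRP1 and SMARCC1 added).

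The size of a change that could be seen depended on abundance. Among the 25% of tested genes with the fewest reads (9.3 to 29.1 CPM) the median standard error (SE) of a log2 fold change was 0.695, and 14.4% of genes had a fitted change over 2-fold. In the highest 25% (105 CPM and above) these were 0.28 and 2.55%. Among the 114 genes of at least 1000 CPM the median SE was 0.107 and 0.877% exceeded 2-fold. On simulated data, edgeR recovered 58% of 4-fold and 8% of 2-fold changes, and DESeq2 62% and 10%, with 3 and 9 false calls. The changes were placed only in genes above a minimum mean read count. Counts were drawn with the spread fitted to abundance, without gene-specific spread or lows in single libraries. The recovery and false calls therefore do not cover genes with fewer reads or with such lows.

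**Figure D1:**
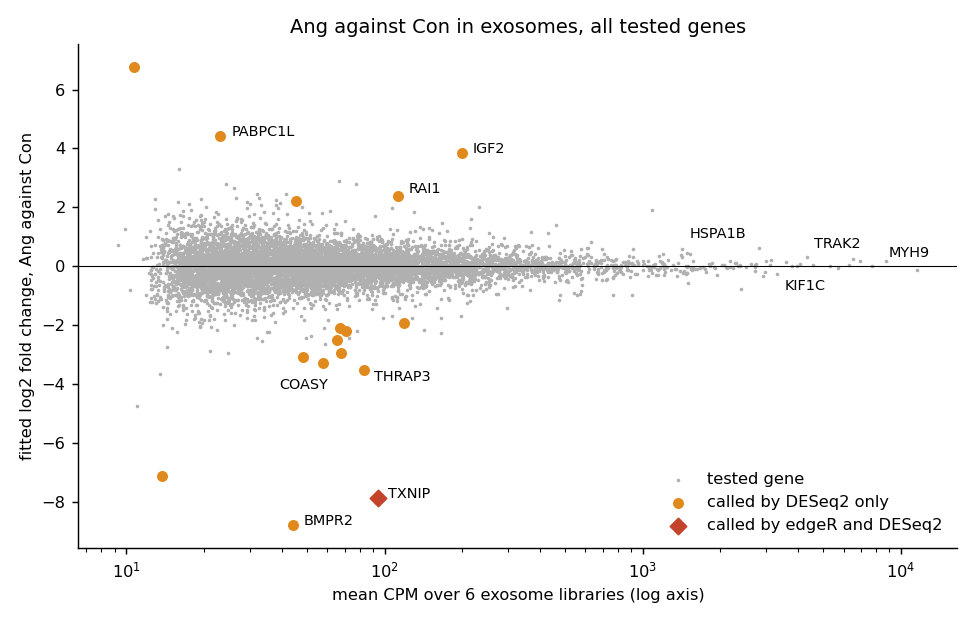
Fitted log2 fold change of Ang against Con exosomes for each of the 8327 tested genes against its mean CPM over the 6 libraries (log axis). TXNIP, called by edgeR and DESeq2, lies at -7.85, the 15 genes called by DESeq2 alone are in orange, and the cloud narrows toward abundant genes such as MYH9 (-0.12) and TRAK2 (0.32).

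TXNIP, the thioredoxin-interacting protein gene (ENSG00000265972, chromosome 1, 145992435 to 145996600, minus strand, GRCh38), was nearly absent from the Ang exosomes. Its protein binds and inhibits thioredoxin and limits glucose uptake, and its transcription follows cellular glucose. It had 126, 165 and 111 reads in the Con libraries and 0, 1 and 0 in the Ang libraries. All 3 Con libraries were high and all 3 Ang libraries were at or next to 0. TXNIP fell by 7.85 on the log2 scale (SE 0.635, 95% interval -9.27 to -6.44, edgeR adjusted p = 0.00216), a fitted value that depends on the prior count. The ratio of the summed reads, Con over Ang, was 306 (95% counting interval 54.6 to 12100). The fitted interval, derived from the F statistic, is narrower than this counting interval and so overstates the precision. Without any 1 library the call stood (edgeR adjusted p 0.00777 to 0.0219), but the fitted change ran from log2 -7.41, without the Ang library of replicate 1, to -9.91, without that of replicate 2, the one with the read. The call was lost with limma voom (adjusted p = 0.802) and with a block for replicate number (0.0593).

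The genes around TXNIP in the thioredoxin system and the arrestin family had overlapping groups, TXNIP aside. ARRDC4, the arrestin-domain gene known to share glucose control with TXNIP, had 95, 111 and 101 reads in Con against 81, 60 and 78 in Ang (log2 -0.09, 95% interval -0.68 to 0.51). The other arrestin-domain genes tested, ARRDC1 (log2 0.14) and ARRDC3 (log2 0.59), had overlapping groups too. TXN, thioredoxin itself, had 86, 56 and 55 reads in Con against 51, 40 and 29 in Ang (log2 -0.32, 95% interval -1.10 to 0.46). The thioredoxin reductase gene TXNRD1 stood at 464 ± 42.6 CPM in Con and 465 ± 61.4 in Ang (SD, n = 3), and the glucose transporter gene SLC2A1 at 142 ± 18.2 and 170 ± 44.7. ITCH, whose product is a ubiquitin ligase for TXNIP, had 153, 101 and 113 reads in Con against 85, 44 and 36 in Ang (log2 -0.75, SE 0.36). MLXIP, which encodes the glucose-responsive factor MondoA, had 5, 9 and 198 reads in Con against 12, 2 and 12 in Ang, so that its Con mean rested on 1 library. Of 21 tested members of this list 1, TXNIP, was called, the only call among all 8327 tested genes (0.012%). The list was chosen with earlier results of these data known, so this call says nothing of the other members. Positive values were found for 7 members and negative for 14, with a median of log2 -0.14 (-0.41 to -0.1 over the alternatives).

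DESeq2 called 10 other genes lower in Ang, none of which passed with edgeR. NRP1, a coreceptor for semaphorins and vascular endothelial growth factor, had 93, 84 and 81 reads in Con against 13, 2 and 10 in Ang (log2 -2.94, SE 0.538; DESeq2 adjusted p = 0.00045). The Con libraries lay close together and the Ang libraries were all lower. CYTH2, an exchange factor for ARF GTPases, had 93, 82 and 60 reads in Con against 12, 14 and 15 in Ang (log2 -2.11, SE 0.362; DESeq2 adjusted p = 0.00326). BMPR2, a receptor for bone morphogenetic proteins, had 20, 62 and 105 reads in Con but none in any Ang library, at least 47.4-fold lower if 3 counts are taken as the floor of the whole Ang group. Its Con libraries themselves spanned 27.5 to 150 CPM.

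COASY, the enzyme of the last steps of coenzyme A synthesis, had 51, 90 and 83 reads in Con against 7, 5 and 5 in Ang (log2 -3.30, SE 0.447; edgeR adjusted p = 0.102; DESeq2 adjusted p = 1.36e-05). THRAP3, a protein of messenger RNA splicing and decay, had 155, 95 and 79 reads in Con against 14, 0 and 7 in Ang (log2 -3.53, SE 0.822). FUBP3, a single-strand nucleic acid binding protein, had 61, 100 and 88 and then 7, 20 and 14 (log2 -2.21, SE 0.438). In all 3 genes the highest Ang library stayed below the lowest Con library. ZNF598, a ubiquitin ligase that senses collided ribosomes, had 167, 120 and 118 reads in Con against 27, 39 and 15 in Ang (log2 -1.93, SE 0.36). DNAJC21, a cochaperone of large ribosomal subunit maturation, had 75, 84 and 80 and then 8, 19 and 5 (log2 -2.51, SE 0.468). ZCCHC9 had 81, 49 and 55 reads in Con against 3, 1 and 12 in Ang (log2 -3.09, SE 0.699). MRPS17, a protein of the small mitochondrial ribosome subunit, had 24, 19 and 16 reads in Con but none in any Ang library, at least 15-fold lower with the same floor, and 27% of its exon length is shared with other genes.

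The higher side held 5 genes called by DESeq2. RAI1, a chromatin-associated regulator of transcription, had 20, 36 and 22 reads in Con against 93, 128 and 90 in Ang (log2 2.38, SE 0.336; edgeR adjusted p = 0.102; DESeq2 adjusted p = 1.33e-05). STX4, a plasma membrane syntaxin of vesicle fusion, had 13, 12 and 9 reads in Con against 39, 45 and 38 in Ang (log2 2.22, SE 0.412; DESeq2 adjusted p = 0.00525). In both genes the groups lay well apart. PABPC1L, a poly(A)-binding protein best known from oocytes, had 2, 1 and 1 reads in Con against 22, 35 and 16 in Ang (log2 4.43, SE 0.71). IGF2, a fetal growth factor, had 33, 5 and 17 reads in Con against 109, 200 and 295 in Ang (log2 3.85, SE 0.683; edgeR adjusted p = 0.502; DESeq2 adjusted p = 4.6e-07). Its groups were apart but each was wide, and 75% of its exon length is shared with other genes. TSNAX-DISC1, a readthrough transcript with 78.3% shared exon length, had 0 reads in each Con library and 15, 11 and 9 in Ang, at least 15.3-fold higher with 3 counts as the floor of the whole Con group.

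**Figure D2:**
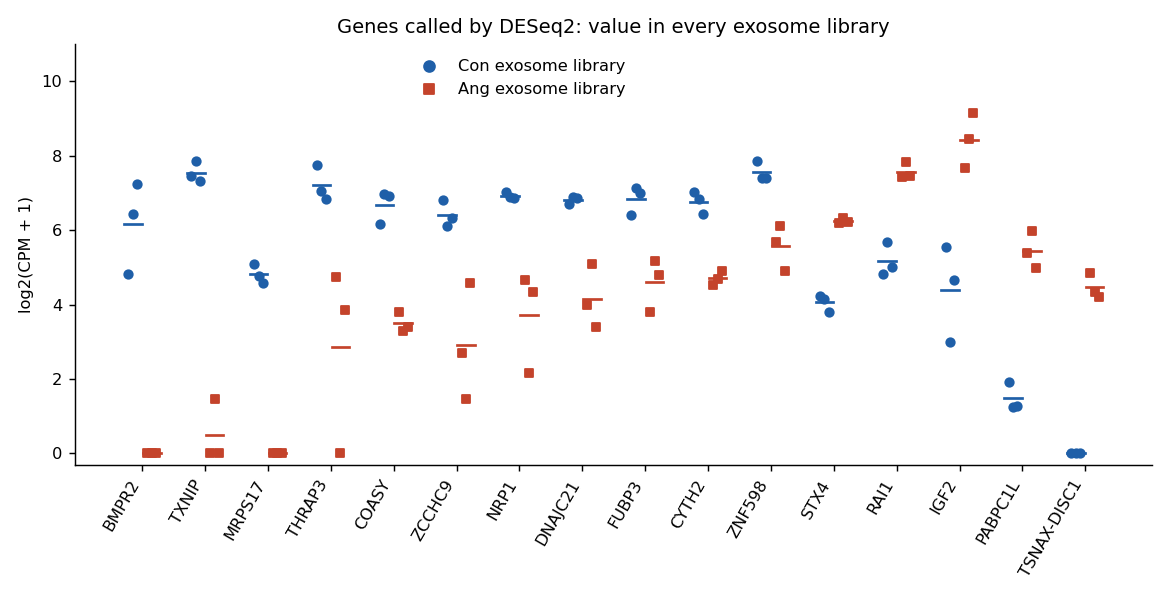
log2(CPM + 1) in each exosome library for the 16 genes called by DESeq2, ordered by fitted fold change; circles are the 3 Con libraries, squares the 3 Ang libraries, and bars the group means on this scale. In every gene the groups are apart in these libraries, from which the genes were picked. The Ang libraries of BMPR2 and MRPS17 and the Con libraries of TSNAX-DISC1 sit at 0.

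All 16 genes called by DESeq2 had an unadjusted edgeR p under 0.05 and groups that did not overlap. These traits come from the same libraries that gave the calls, so they add no independent support. TXNIP aside, the edgeR adjusted p of the 16 ran from 0.102 to 0.823. Of the 16, 3 had over 20% of their exon length shared with other genes, and 4 had 0 to 3 reads in 1 group. None of the 16 had an unadjusted p under 0.05 in the AC16 cells with edgeR, where the smallest adjusted p among them was 0.814. TXNIP stood at 379 ± 20.5 CPM in Con cells and 355 ± 21 in Ang cells (SD, n = 3), COASY at 107 ± 29.7 and 98.5 ± 46.4, NRP1 at 246 ± 7.1 and 257 ± 2.29, and RAI1 at 160 ± 12 and 161 ± 6.56. The cell libraries were made with other kits and normalised separately, so their levels are not set against those of the exosomes. The next fit, to all 12 libraries, took 1 spread per gene from both compartments, so its SE may be too small for the exosomes. The difference of the Ang against Con change between exosomes and cells was called for 3 of 11811 genes (0.0254%; edgeR on all 12 libraries), TXNIP, RAI1 and EIF2AK3, of which the first and second are among the 16. For NRP1 this difference was log2 -3.03 (SE 0.477; edgeR adjusted p = 0.0534), for COASY log2 -3.22 (SE 0.625; 0.146) and for IGF2 log2 4.24 (SE 0.701; 0.0749).

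**Figure D3:**
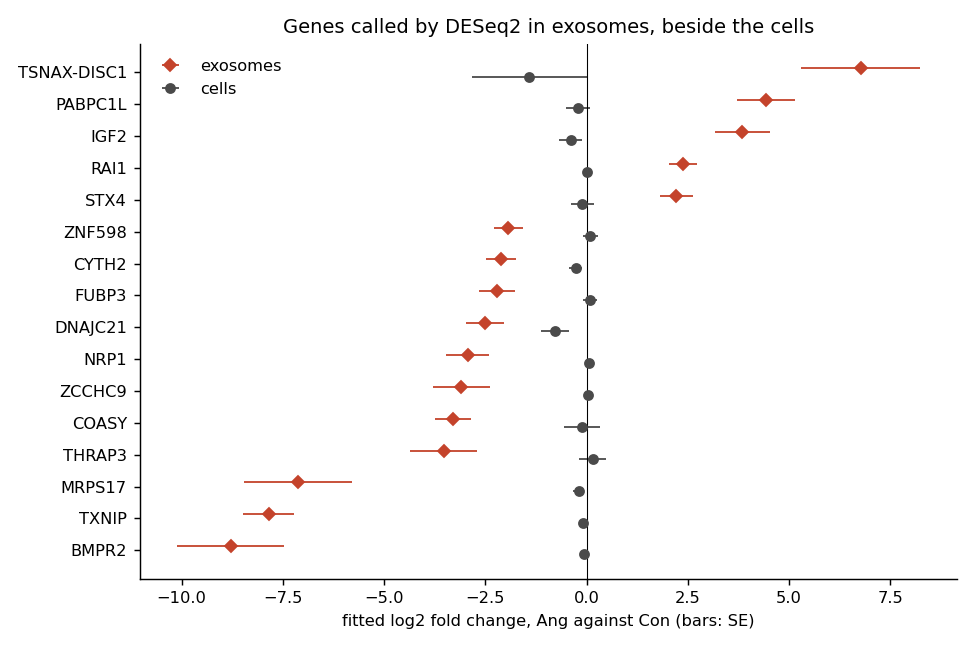
Fitted log2 fold change of Ang against Con in exosomes (diamonds) and in cells (circles) for the 16 genes called by DESeq2 in exosomes; bars are the SE, 3 libraries per group. The exosome values of BMPR2, MRPS17 and TSNAX-DISC1, with 0 reads in 1 group, and of TXNIP depend on the prior count. The cell values run from TSNAX-DISC1 at -1.42 (SE 1.42) and DNAJC21 at -0.79 (SE 0.347) to THRAP3 at 0.15 (SE 0.33).

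Of the 11973 listed genes, 9 (0.0752%) had 0 reads in every library of 1 group and at least 5 in each of the other. Beside BMPR2 and MRPS17, 3 were absent from Ang: the stress transcription factor gene ATF5 (16, 27 and 6 reads in Con), the kinesin gene KIF21A (14, 14 and 6) and the proton pump gene ATP6V0E2 (10, 7 and 6). Beside TSNAX-DISC1, 3 were absent from Con: the receptor tyrosine kinase genes ALK (7, 10 and 6 reads in Ang) and RET (6, 7 and 6), and the asparaginase gene ASRGL1 (7, 5 and 7). With the same floor, ATF5 was at least 12.4-fold lower, ALK at least 10.1-fold higher and RET at least 8.33-fold higher. These 6 had too few reads for the test within exosomes. In cells ALK was 15.7 ± 6.5 CPM in Con and 8.11 ± 1.75 in Ang, and RET 10.1 ± 4.3 and 4.71 ± 0.492 (SD, n = 3). Neither passed there (edgeR adjusted p 0.8 and 0.795), and the difference between the compartments' changes did not pass either (edgeR adjusted p = 0.124 and 0.133). EIF2AK3, the PERK kinase of the unfolded protein response, was close to this pattern with 15, 20 and 19 reads in Con against 1, 1 and 1 in Ang; the ratio was 13.7, with a 95% counting interval of 4.44 to 68.4.

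A gene low in only 1 library was far more frequent than a gene low in a whole group. Of 2859 genes with at least 40 reads in each Con library, 131 (4.58%) had 1 Ang library over 4-fold below the lowest Con library, 9 (0.315%) had 2, and 4 (0.14%) had all 3. These 4 were TXNIP, COASY, NRP1 and THRAP3. In the other direction, of 2132 genes with at least 40 reads in each Ang library, 86 (4.03%) had 1 low Con library, 9 (0.422%) had 2, and 1 (0.0469%), IGF2, had all 3. The single lows fell on every library: 51 to 75 genes per library lay over 4-fold below both other libraries of their group, which is 1.86% to 2.45% of the genes with at least 40 reads in both others.

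Some of these single lows were in abundant genes. KIF1C, a kinesin that carries messenger RNA to cell protrusions, had 2991, 2518 and 2252 reads in Con against 313, 2569 and 2085 in Ang. The spectrin gene SPTBN1 had 952, 770 and 949 and then 179, 778 and 695. The splicing factor gene HNRNPU had 595, 507 and 625 and then 25, 451 and 476. All of these were low in the Ang library of replicate 1. DCTN1, the large dynactin subunit, had 420, 781 and 7 reads in Con against 368, 512 and 484 in Ang. AP3D1, an adaptor subunit of endosomal sorting, had 392, 556 and 626 and then 373, 1 and 231. HNRNPA1 had 706, 105 and 765 and then 618, 591 and 590. Lows of this kind therefore occurred in either group and in different libraries, and their cause was not tested.

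**Figure D4:**
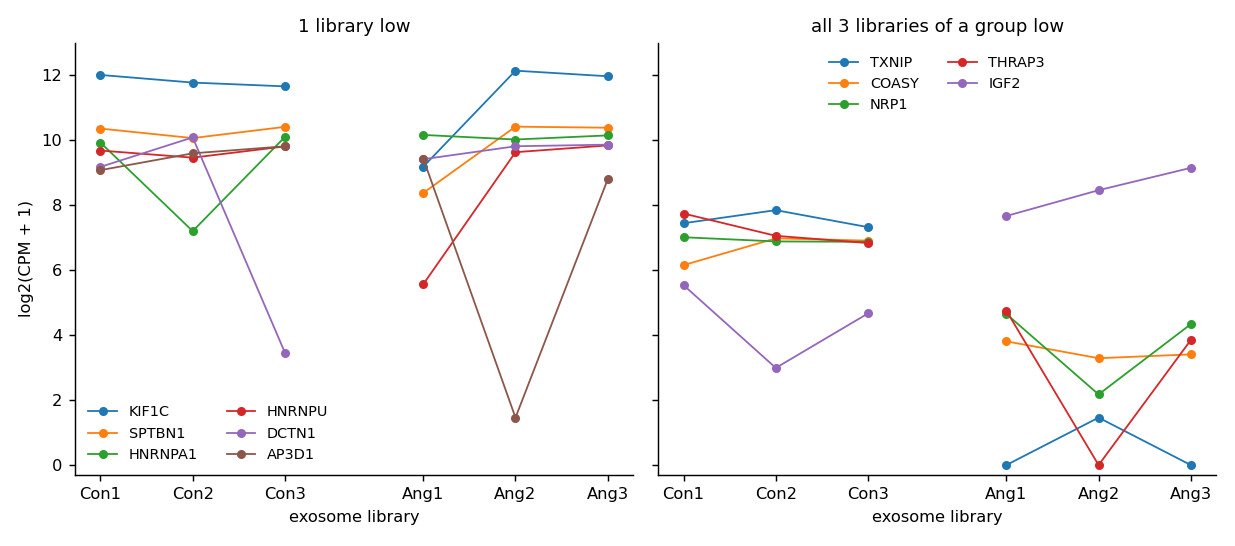
log2(CPM + 1) by exosome library for 6 genes low in 1 library (left) and for the 5 genes low in all 3 libraries of a group (right); lines join libraries of a group only as a guide to the eye. On the left AP3D1 drops to 1 read in the Ang library of replicate 2, and on the right TXNIP, COASY, NRP1 and THRAP3 are low in all Ang libraries and IGF2 in all Con libraries.

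The genes with the most reads had small fitted changes. The 10 with the highest CPM were MYH9, ANP32B, MTRNR2L12, RAB13, NCL, ACTB, RPL13A, GAPDH, EEF1A1 and TRAK2, and their fitted changes ran from -0.12 (MYH9) to 0.32 (TRAK2) on the log2 scale. ACTB stood at 6202 ± 62.6 CPM in Con and 6403 ± 299 in Ang (log2 0.05, 95% interval -0.07 to 0.16), and GAPDH at 5311 ± 187 and 5331 ± 293 (log2 0.01, 95% interval -0.13 to 0.14). For both genes a change of 1.5-fold lies outside the interval. The nucleolin gene NCL was wider, with 5017, 4914 and 2825 reads in Con against 3939, 3855 and 3776 in Ang.

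Several abundant messengers that localise to protrusions of migrating cells had slightly higher CPM in Ang. TRAK2, an adaptor of mitochondrial transport, stood at 3840 ± 308 CPM in Con and 4799 ± 266 in Ang (SD, n = 3; log2 0.32, SE 0.0748; edgeR unadjusted p = 0.00162, adjusted p = 0.708). RAB13, a GTPase of vesicle traffic, stood at 6509 ± 287 and 7352 ± 335 (log2 0.18), the histone chaperone gene ANP32B at 8270 ± 283 and 9283 ± 519 (log2 0.17), and the RhoA exchange factor gene NET1 at 3434 ± 30.8 and 3767 ± 68.8 (log2 0.13). In each of the 4 the lowest Ang library lay above the highest Con library in CPM, as for 5.18% of all tested genes, and none passed the adjusted test. The other 9 tested members of the list overlapped, with KIF1C at log2 -0.25 (SE 0.766), the collagen receptor gene DDR2 at -0.20 and the dynein light chain gene DYNLL1 at -0.13. The list had 7 positive and 6 negative members and a median of log2 0.13, against 0 for all tested genes, and it was -0.12 without the Con library of replicate 1.

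Immediate-early genes, transcribed within minutes of a stimulus, leaned to positive values. Of 32 tested, 23 were positive and 9 negative, the median was log2 0.23 (0.18 to 0.27 over the alternatives), and the summed level was 4100 to 4340 CPM in the Con libraries and 4950 to 5290 in the Ang libraries. Non-overlap was seen for 4 above (5.18% of all tested genes) and 1 below (5.6%). JUNB had 122, 125 and 91 reads in Con against 145, 165 and 143 in Ang, or 157 ± 23.5 and 277 ± 10.8 CPM (log2 0.82, SE 0.217; edgeR adjusted p = 0.988). JUN stood at 482 ± 58.7 and 748 ± 166 CPM (log2 0.63), IER2 at 256 ± 15.7 and 392 ± 48.6 (log2 0.62), and FOSL1 at 375 ± 23.2 and 462 ± 59.1 (log2 0.30). FOS had 27, 10 and 17 reads and then 28, 19 and 16, and EGR1 178, 215 and 135 and then 129, 203 and 166, each with overlapping groups. ATF3 (log2 -0.79) and FOSL2 (log2 -0.56) were on the other side. No member passed the adjusted test.

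Stress genes were mixed. HSPA1B, an inducible HSP70 gene, stood at 1129 ± 160 CPM in Con and 1717 ± 6.42 in Ang (log2 0.60, SE 0.115; edgeR adjusted p = 0.296), and its near-identical neighbour HSPA1A at 1020 ± 57.1 and 1294 ± 87.6 (log2 0.34), so that reads may be split between them. Of 32 tested chaperone genes 11 were positive and 21 negative, with a median of log2 -0.06; the most abundant by reads, HSP90AA1, had log2 -0.17. In the unfolded protein and integrated stress list 16 were positive and 15 negative, with the transcription factor gene CEBPB at 311 ± 47.7 and 476 ± 86.2 CPM (log2 0.61), the amino acid transporter gene SLC3A2 at 162 ± 53.1 and 80 ± 36.6 (log2 -1.02), and the chaperone gene HSP90B1 at 1015 ± 35.7 and 850 ± 25 (log2 -0.26). Of 25 tested genes of oxidative stress defence, 15 were positive and 10 negative, the median was log2 0.09, and 6 lay wholly above Con (5.18% of all tested genes did) and none below (5.6%). These 6 were the lipid peroxide reductase gene GPX4 (522 ± 41.4 and 699 ± 56.2 CPM, log2 0.42), GPX1, SOD2, HMOX1, GCLM and SLC7A11. HMOX1 had 3, 12 and 8 reads in Con against 11, 18 and 10 in Ang, so its groups were apart only after scaling (log2 1.13, SE 0.721). The ferritin genes FTH1 (log2 0.00, SE 0.0725) and FTL (log2 0.08, SE 0.0781) overlapped.

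Genes of mitosis leaned the other way. Of 37 tested, 12 were positive and 25 negative, the median was log2 -0.14 (-0.20 to -0.06 over the alternatives), and 5 lay wholly below Con (5.6% of all tested genes did) with none above (5.18%). These were the checkpoint kinase gene TTK (95, 74 and 69 reads in Con, 31, 45 and 35 in Ang; log2 -0.71), the survivin gene BIRC5 (log2 -0.34), NUSAP1 (log2 -0.19) and the mitotic kinesin genes KIF2C (log2 -0.28) and KIF20A (log2 -0.10). CDK1 had 149, 137 and 118 reads in Con against 17, 9 and 90 in Ang (log2 -1.36, SE 0.817), and MKI67 had 699, 303 and 262 and then 773, 295 and 12. Kinesin genes, which overlap this list, had 9 positive and 20 negative of 29 tested (median log2 -0.13, and 0.01 without the Ang library of replicate 1). Genes of DNA replication had 17 positive and 19 negative of 36, with SLBP, which processes histone messengers, at log2 0.52 and the licensing factor gene CDC6 at 0.68. None of these genes passed.

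Genes of translation and respiration were level in the middle. The 51 large-subunit ribosomal protein genes had a median of log2 -0.03 and the 34 small-subunit genes 0.04, and the middle 50% of members lay within -0.13 to 0.04 and -0.07 to 0.11. Among 56 genes picked by translation factor symbols, 26 were positive and 30 negative. Of these, 1 lay wholly above Con (5.18% of all tested genes) and 6 wholly below (5.6%). The 6 included EIF4H (log2 -0.57), EEF1D (log2 -0.39) and EIF2AK3, which its symbol brought in although it encodes the PERK kinase. PABPC4, a cytoplasmic poly(A)-binding protein, had 232, 196 and 197 reads in Con against 72, 82 and 88 in Ang (log2 -0.97, SE 0.215; edgeR adjusted p = 0.611). HARS1, histidyl-tRNA synthetase, had 43, 51 and 64 and then 19, 14 and 16 (log2 -1.29, SE 0.395). Of 73 respiratory chain genes 34 were positive and 39 negative, with 7 wholly below Con (5.6% of all tested genes) and 2 above (5.18%); UQCRFS1, the iron-sulfur subunit of complex III, had 57, 28 and 39 reads in Con against 7, 10 and 3 in Ang (log2 -2.23, SE 0.555). Of 72 tested mitochondrial ribosomal protein genes, MRPS17 included, 36 were positive and 36 negative. WASF2, an activator of actin branching, was outside the lists with 199, 223 and 217 reads in Con against 74, 56 and 81 in Ang (log2 -1.19, SE 0.241; edgeR adjusted p = 0.385).

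**Figure D5:**
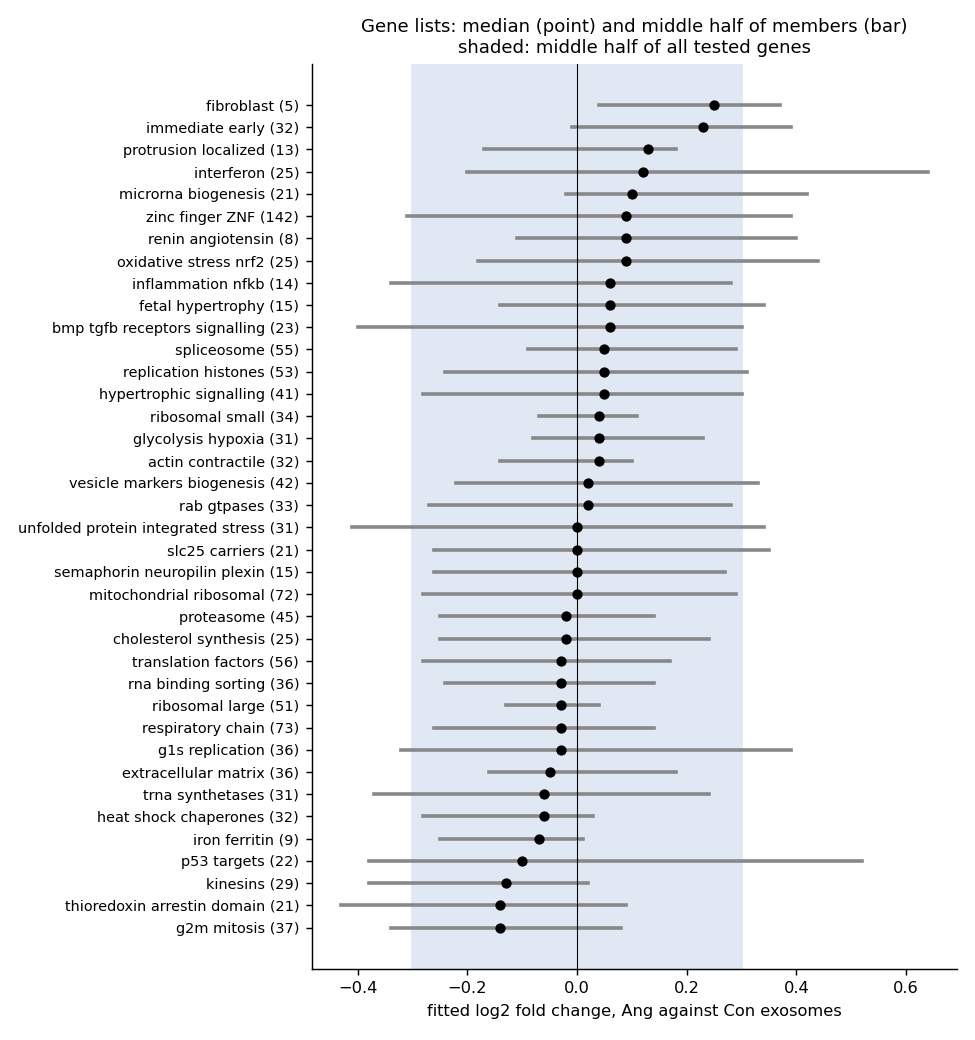
Median fitted log2 fold change (point) and middle 50% of members (bar) for each gene list with at least 5 tested members, whose number is in parentheses; the shaded band is the middle 50% of all tested genes (-0.30 to 0.30). Every median lies within the band, from -0.14 (mitosis, and thioredoxin with arrestin-domain genes) to 0.25 (fibroblast markers, 5 genes).

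Genes of vesicle formation and of RNA sorting into vesicles showed no common direction. Of 42 vesicle genes 22 were positive and 20 negative (median log2 0.02). The non-overlapping members were STX4 above (as for 5.18% of all tested genes) and CHMP2A below (as for 5.6%). CHMP2A, an ESCRT subunit, had 108, 89 and 112 reads in Con against 8, 41 and 64 in Ang (log2 -1.05, SE 0.598). The tetraspanin genes overlapped: CD63 had 157, 176 and 144 reads in Con against 111, 122 and 102 in Ang (log2 -0.12, 95% interval -0.58 to 0.35), CD9 had log2 -0.02 (-0.79 to 0.76) and CD81 log2 -0.23 (-1.56 to 1.09). Among 36 genes of RNA-binding proteins linked to vesicle sorting, 17 were positive and 19 negative (median log2 -0.03), none lay wholly above Con, and 3 lay wholly below (5.6% of all tested genes did), PABPC4, FXR1 and G3BP2. YBX1 stood at 3924 ± 173 CPM in Con and 3982 ± 240 in Ang (log2 0.02, 95% interval -0.13 to 0.17). HNRNPA2B1 had 563, 605 and 350 reads and then 238, 324 and 68 (log2 -0.89, 95% interval -2.27 to 0.48). SYNCRIP had 240, 228 and 7 reads and then 123, 112 and 144, with 1 Con library near absent. These values are of the messengers carried in vesicles and say nothing of the proteins' amounts.

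Hypertrophy markers were unevenly covered in the exosomes, with 19 of 27 listed and 15 tested. NPPA, NPPB and ACTA1, the classical fetal genes, were not listed. ANKRD1, a stretch-responsive cardiac gene, had 6, 4 and 12 reads in Con against 0, 6 and 6 in Ang, too few to test. RCAN1, a calcineurin target, had 28, 42 and 28 and then 37, 27 and 21 (log2 0.19, 95% interval -0.73 to 1.11). The growth factor gene CCN2 had log2 0.39, and SMAD3, a mediator of TGF-beta signals, 0.06. In CPM, 1 tested member lay wholly below Con (5.6% of all tested genes did) and 2 wholly above (5.18%). The 1 below was ACTN1, a non-muscle alpha-actinin, at 1168 ± 17.3 and 931 ± 147 CPM (log2 -0.33, SE 0.127). The 2 above were GATA6 and NFATC4, a target of calcineurin, the latter at 34.9 ± 11.9 and 67.6 ± 11.7 CPM (log2 0.95, SE 0.411). GATA6, a cardiac transcription factor, had 9, 8 and 4 reads in Con against 17, 13 and 12 in Ang (log2 1.38, SE 0.656). Of the 15 tested members of this list 9 were positive and 6 negative (median log2 0.06), and none passed. The angiotensin receptor gene AGTR1 had 2, 2 and 8 reads in Con against 6, 9 and 6 in Ang and was not tested. The 8 tested renin-angiotensin genes had 5 positive and 3 negative values.

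The Ang exosomes gave reads for fewer of the listed genes. At the depth of the shallowest library, the number of genes expected with at least 1 read was 11001, 10961 and 10992 in Con and 10562, 10703 and 10775 in Ang. The means were 10984 ± 21.1 and 10680 ± 108 (SD, n = 3), a difference of -304 genes, with an exact two-sided permutation p of 0.1, the smallest that 3 against 3 allows. A gene is listed only with at least 7 reads over the 6 libraries, a rule to which the deeper Con libraries contribute more, and its part in the difference was not tested. The 100 genes with the most reads held 22.9% ± 0.105 of reads in Con and 23.2% ± 0.336 in Ang (exact permutation p = 0.3). Ang libraries also resembled each other less: Spearman's rho over the 8327 tested genes was 0.775 to 0.782 between Con libraries, 0.739 to 0.747 between Ang libraries and 0.751 to 0.765 across groups, values that share the difference in depth. The biological coefficient of variation was 0.4 in Con and 0.448 in Ang.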

How the data were processed

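Gene read counts were analysed as deposited: whole-number counts of reads per Ensembl gene, made by the authors. The submitters' processing notes name GRCh38, HISAT2 and StringTie. How reads were assigned to genes, strand use and the annotation release were not given in the sources used here. Symbols were matched for 11963 of 11973 genes and GENCODE 29 coordinates for 11959. Circular and small RNAs were not analysed here.

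The test was edgeR 4.0.16 (R 4.3.3; quasi-likelihood F test, robust, trimmed mean of M-values scaling), two-sided, on genes kept by filterByExpr (count at least 10, total at least 15). CPM refers to reads in tested genes. DESeq2 1.42.0 and limma 3.58.1 were alternatives. The method was tested on simulated data. The SE of an edgeR log2 fold change is its absolute value over the square root of the F statistic, and fitted intervals use this SE. Counting ratios have exact binomial intervals, and these intervals and the floors cover counting error only. Libraries with the same replicate number showed no correlated deviations, which cannot exclude a shared batch or culture. Libraries of 1 group differed beyond sampling noise. Gene lists, members and thresholds were chosen with earlier results of these data known. Genes were named if called by edgeR or DESeq2, among the 10 with the smallest p on each side, the 10 with the most reads or the 9 absent from 1 group, if among the 3 smallest p or the most abundant of a list, if their change differed from that of the cells, or if in a fixed set. ARRDC4, other list members and genes with single lows were named after their values were seen.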

Additional observations from a re-analysis of the deposited data

Results flagged for a closer look

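For 3 genes a difference between the Ang against Con change in exosomes and that in cells was called in the fit to all 12 libraries. The test was an interaction with edgeR and Benjamini-Hochberg adjustment over 11811 genes. The change in exosomes minus that in cells was log2 -8.13 (SE 0.528, adjusted p = 1.74e-05) for TXNIP, with all 3 Ang exosome libraries low. It was log2 -3.67 (SE 0.505, adjusted p = 0.0293) for EIF2AK3, which had 55.6 ± 6.4 CPM in Con cells and 51.8 ± 1.16 in Ang cells. It was log2 2.36 (SE 0.321, adjusted p = 0.0293) for RAI1, with all 3 Ang exosome libraries high. Compartment and library kit went together, so their parts cannot be told apart. The fit took 1 spread per gene from both compartments together. Exosomes alone gave an SE of 0.635 for TXNIP, 0.846 for EIF2AK3 and 0.336 for RAI1, each above that of this fit. The adjusted p-values of this fit may thus be too small. In exosomes alone EIF2AK3 had an edgeR adjusted p of 0.708 and RAI1 of 0.102. RAI1 and EIF2AK3 lost the call with a replicate block, with exosome library Con 3 left out and when any cell library was left out; TXNIP kept it in each of these fits.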

How the results depend on the processing

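The count of genes called in exosomes, 1, was also 1 with upper-quartile scaling, raw totals, a minimum count of 30 or no robust option. It was 16 with DESeq2, 3 without the low-count filter (COASY and RAI1 added) and 0 with limma voom. It was 22 with all 12 libraries, in a fit with 1 spread per gene for exosomes and cells, and 1 to 4 without 1 library. With a replicate block it was 0. Deviations of same-numbered libraries correlated at -0.017 to -0.006, which showed no pairing. This cannot exclude a shared batch or culture, since each library's own spread was wide. The count of changes that differed from the cells, 3, was 368 with DESeq2, 1 with a replicate block, 3 without the filter and 1 to 17 without 1 library. The detection difference was -386 genes at full depth and -645 for at least 5 reads, and -352 to -245 without 1 library. The difference in the share of the top 100 genes was 0.157 to 0.485 percentage points without 1 library. Of 2354 values of 159 named genes under alternatives, 52 had the other sign (18 genes, called in neither fit), 34 were called where the reported fit made no call, and 2 lost the call, both TXNIP. The cause of these moves was not tested. On data simulated at the depth of these libraries, with the spread fitted to abundance and changes only in better-covered genes, edgeR recovered 8% of 2-fold changes. The parts of depth and spread were not tested separately.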

Other observations

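Gene lists not described above gave these values in exosomes, none with a member called by edgeR. Of 25 tested interferon and antigen presentation genes, 15 were positive and 10 negative (median log2 0.12), and HLA-C, a class I antigen-presenting gene, had 193, 210 and 206 reads in Con against 254, 244 and 224 in Ang (log2 0.64, SE 0.163; edgeR adjusted p = 0.816). Of 53 histone genes 30 were positive and 23 negative, with 5 wholly above Con (5.18% of all tested genes) and 5 wholly below (5.6%). Among the latter was H2AC11, at 288 ± 49.8 CPM in Con and 165 ± 20.1 in Ang exosomes (log2 -0.80, SE 0.226), and at 260 ± 10.6 and 56.4 ± 29.2 in the cells (log2 -2.20, SE 0.437; edgeR adjusted p = 0.781). Of 55 splicing genes 35 were positive and 20 negative, and the splicing factor gene SRSF4 had 327, 327 and 248 reads in Con against 195, 108 and 124 in Ang (log2 -0.68, SE 0.25). Of 36 extracellular matrix genes 14 were positive and 22 negative, with COL1A1 at 2360 ± 134 and 2421 ± 136 CPM.

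Of 23 genes of BMP and TGF-beta signalling 13 were positive and 10 negative, and GDF11, a secreted ligand of this family, stood at 163 ± 65.6 and 268 ± 16.2 CPM (log2 0.71, SE 0.296). Semaphorin, neuropilin and plexin genes had 7 positive and 8 negative of 15, and VEGFB, a growth factor gene in that list, stood at 102 ± 12.6 and 153 ± 15.2 CPM (log2 0.58, SE 0.263). In these lists the receptors BMPR2 and NRP1 were the lowest values, beside members on both sides of 0.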
